A study of Mus musculus with 18 samples.

Results

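PU.1 occupancy in pre-B cells was compared with that in the macrophage-like cells made from them, over every place in the genome where either library held PU.1, whether or not C/EBPα was there. The genome (mouse mm9, chromosomes 1 to 19) was divided into 12361722 bins of 200 bp, and the 73143 bins (0.592%) with at least 8 reads in either library were compared. These were 2 of the 18 ChIP-seq libraries of the series. C10 cells, which derive from the HAFTL pre-B cell line and carry an inducible fusion of C/EBPα to the estrogen receptor, tagged with GFP, provided both. For the library at 48 hr post-induction (hpi), the fusion had been moved into the nucleus with 17 beta-estradiol (β-Est), at a concentration that the labels and the methods give differently, and the cells were grown with IL-3 and CSF-1. The library at 0 hpi came from cells before induction, whose control was the ethanol solvent. The fusion gene was thus present at both time points, and both libraries were made with the same PU.1 antibody (sc-352) and sequenced on the same kind of instrument, with reads of 36 bases.

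Each time point had 1 library, so no test between libraries was possible, and values are given with exact 95% intervals that cover counting error only. The library at 0 hpi held 6884238 reads and that at 48 hpi 10204581, of which 6884238 were drawn at random so that both had the same depth. Of these reads 16.2% and 16.8%, respectively, fell in the compared bins. The signal was equally sharp: 64.2% and 63.6% of the reads in 600-bp windows centred on strong bins fell in the central bin. There was no control library. RNA was not analysed here, so that the cell types could be checked through PU.1 at their marker genes alone, which is given below.

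PU.1 is a transcription factor of the ETS family that is essential for both macrophages and B cells, and it is made at higher levels in macrophages than in B cells. It binds DNA around the core GGAA, most strongly where the core is extended to GAGGAAGT with adenines before it. In B cells PU.1 also binds weak sites together with IRF4 or IRF8, at composite elements in which an ETS core and an IRF half-site lie side by side (GGAA and GAAA with 2 letters between them), whereas in macrophages it shares enhancers with AP-1 and C/EBP factors.

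Bins with at least 3 times as many reads at 48 hpi (counts below 3 taken as 3) are called gained, bins with at least 3 times as many at 0 hpi are called lost, and bins whose counts differed by at most 1.5-fold are called steady. The following bins carry the contrast between these classes. Sequences are those of the mm9 plus strand, and capitals mark GGAAGT (the ETS core favoured by PU.1), TGACTCA (AP-1), TTGCNNAA (C/EBP) and GGAA followed after 2 letters by GAAA (ETS-IRF) on either strand. Each is named by the nearest start of a protein-coding gene. First, gained bins with some of the largest fold changes, shown for their AP-1 letters beside ETS cores:
chr17:24135401-24135600, Prss22: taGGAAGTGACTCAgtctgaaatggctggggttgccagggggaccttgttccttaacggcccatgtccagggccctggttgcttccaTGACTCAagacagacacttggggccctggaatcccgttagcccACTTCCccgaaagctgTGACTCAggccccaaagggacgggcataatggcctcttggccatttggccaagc
chr16:4915801-4916000, Nudt16l1: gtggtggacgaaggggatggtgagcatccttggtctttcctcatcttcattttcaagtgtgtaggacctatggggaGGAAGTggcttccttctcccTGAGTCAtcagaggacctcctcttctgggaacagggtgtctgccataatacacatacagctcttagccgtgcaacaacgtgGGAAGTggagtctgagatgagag
chr4:59379201-59379400, Susd1: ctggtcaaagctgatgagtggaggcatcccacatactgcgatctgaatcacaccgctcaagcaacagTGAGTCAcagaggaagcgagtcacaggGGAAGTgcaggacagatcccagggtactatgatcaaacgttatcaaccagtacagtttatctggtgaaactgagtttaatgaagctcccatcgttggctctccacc
chr1:84403601-84403800, Pid1: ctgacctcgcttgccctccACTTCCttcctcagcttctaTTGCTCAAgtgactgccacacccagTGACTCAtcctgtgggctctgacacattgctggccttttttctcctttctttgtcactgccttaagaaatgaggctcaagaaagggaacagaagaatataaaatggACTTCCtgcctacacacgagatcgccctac
Second, lost bins, shown for their ETS-IRF letters:
chr4:53808001-53808200, Tal2: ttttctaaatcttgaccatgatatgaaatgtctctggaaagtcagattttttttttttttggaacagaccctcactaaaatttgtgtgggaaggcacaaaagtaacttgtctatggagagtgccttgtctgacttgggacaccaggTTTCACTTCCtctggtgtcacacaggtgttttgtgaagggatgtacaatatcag
chr6:70685601-70685800, Rpia: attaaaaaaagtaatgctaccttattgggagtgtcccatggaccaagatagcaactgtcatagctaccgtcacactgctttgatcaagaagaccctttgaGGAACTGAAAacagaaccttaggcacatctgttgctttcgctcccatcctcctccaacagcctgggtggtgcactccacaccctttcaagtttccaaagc
chr3:52144601-52144800, Foxo1: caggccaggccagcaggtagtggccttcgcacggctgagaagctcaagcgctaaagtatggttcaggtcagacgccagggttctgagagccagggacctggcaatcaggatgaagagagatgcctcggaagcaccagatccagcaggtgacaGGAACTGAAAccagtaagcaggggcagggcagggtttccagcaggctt
chr3:130725601-130725800, Lef1: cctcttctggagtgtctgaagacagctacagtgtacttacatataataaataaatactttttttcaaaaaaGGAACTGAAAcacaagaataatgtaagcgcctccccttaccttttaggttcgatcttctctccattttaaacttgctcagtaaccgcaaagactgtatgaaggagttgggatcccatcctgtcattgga
Last, steady bins with the most reads, shown because each holds GAGGAAGT with AAA before it and G after it, the 12 letters of a long PU.1 site:
chr2:84807601-84807800, Prg2: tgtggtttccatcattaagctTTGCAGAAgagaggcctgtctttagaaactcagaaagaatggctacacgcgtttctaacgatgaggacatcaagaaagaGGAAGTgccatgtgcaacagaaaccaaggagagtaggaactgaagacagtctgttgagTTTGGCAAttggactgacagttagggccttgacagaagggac
chr6:83405401-83405600, Tet3: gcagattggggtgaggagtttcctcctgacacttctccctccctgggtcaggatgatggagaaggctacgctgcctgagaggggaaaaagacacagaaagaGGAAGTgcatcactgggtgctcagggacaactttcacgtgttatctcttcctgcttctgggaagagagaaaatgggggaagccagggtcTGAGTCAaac
chr4:115520201-115520400, Mknk1: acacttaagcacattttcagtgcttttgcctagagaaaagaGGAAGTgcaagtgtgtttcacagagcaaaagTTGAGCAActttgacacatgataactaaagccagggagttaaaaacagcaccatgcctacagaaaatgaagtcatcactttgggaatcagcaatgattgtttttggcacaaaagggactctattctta

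The Prss22 bin, 434 bp from the start of this serine protease gene, held 2 reads at 0 hpi and 80 at 48 hpi, a ratio of 40 (10.7 to 336). It contains TGACTCA 3 times. The Nudt16l1 bin, in an intron, went from 1 to 105 reads, and the Susd1 bin, also intronic, from 4 to 97. The Pid1 bin went from 2 to 78 reads and was the one of these 4 with strong C/EBPα signal at 48 hpi, at 87.6 reads per 10000000. The Rpia bin, in contrast, is intergenic and lies 8.85 kb downstream of Igkc, which encodes the constant region of the immunoglobulin kappa light chain. The 3′ enhancer of that locus is the textbook case of joint binding by PU.1 and IRF4. The bin fell from 100 to 4 reads. The Tal2 bin fell from 111 to 5 reads, the intronic Foxo1 bin from 126 to 18, and the Lef1 bin from 43 to 1. The steady bins near Prg2, Tet3 and Mknk1 held 248, 235 and 224 reads at 0 hpi and 197, 162 and 156 at 48 hpi.

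More bins gained than lost PU.1. Of the 73143 bins, 14110 (19.3%) were gained and 8680 (11.9%) were lost, while 21340 (29.2%) were steady and 29013 (39.7%) lay between. At 2-fold the shares were 32.8% and 23.7%, and at 4-fold 9.65% and 5.1%. At least 8 reads were found in both libraries in 29820 bins (40.8%), at 0 hpi alone in 18253 (25.0%) and at 48 hpi alone in 25070 (34.3%). The median gained bin went from 2 to 14 reads and the median lost bin from 13 to 3, and the median steady bin held 13 in both. No read at 0 hpi was found in 2198 bins, and none at 48 hpi in 1024. At the threshold itself, 10786 bins held 8 reads in the library with more and were compared, and 15310 bins with 7 were not. These counts follow from the choice of classes and are descriptions. A site bound in fewer cells and a site bound less in each cell cannot be told apart in such libraries.

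**Figure D1:**
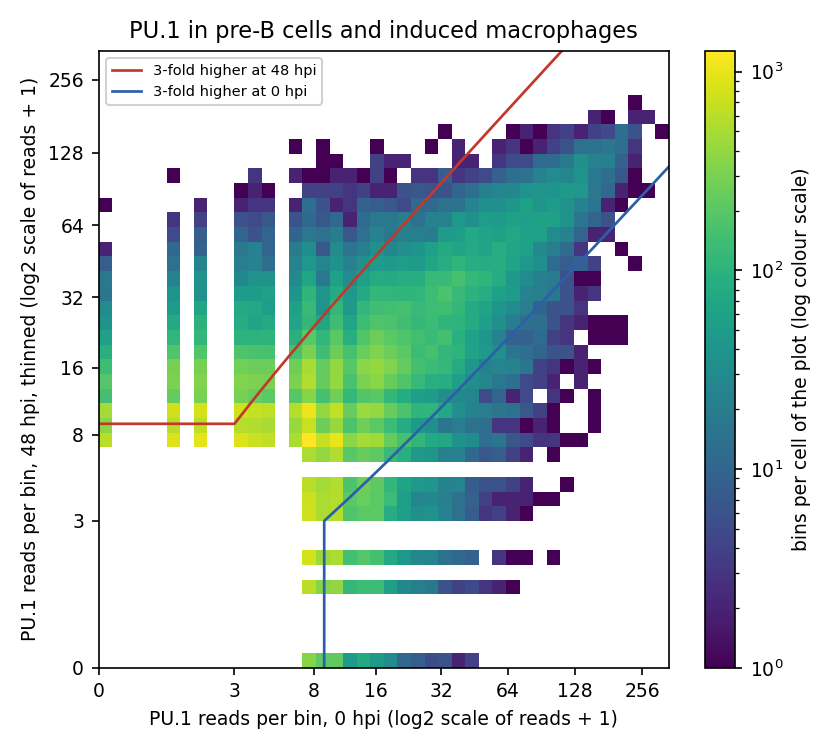
Number of 200-bp bins (colour, log scale) by their PU.1 reads at 0 hpi (horizontal axis) and at 48 hpi after thinning (vertical axis), both on a log2 scale of reads + 1. Bins on or beyond the red line (14110) were gained and those on or beyond the blue line (8680) were lost.

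Compared bins lay next to each other in 46791 runs, of which 26136 were a single bin and 16131 were 2 bins. A gained bin occurred in 11021 runs and a lost one in 7089. Both kinds met in 36 runs, a count that the shortness of most runs limits. Neighbouring bins share a site, and the intervals on shares of bins below are therefore too narrow as measures of sites.

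The gained share was lower among the bins with the most reads. Among bins with 16 to 31 reads in the library with more, 22.5% were gained and 12.6% lost. Among the 504 bins with 128 reads or more, 1.39% were gained and 8.73% lost. Of these 504 bins 8.53% had more reads at 48 hpi, and the median log2 ratio was -0.59, against 0.22 in bins with 8 to 15 reads. The strongest gained bin had 153 reads at 48 hpi and the strongest lost bin 271 at 0 hpi. The number of reads in the library with more also entered the classes. As 1 read per position and strand was kept, a bin could hold at most 400 reads, and at 48 hpi this limit applied to 10204581 reads before thinning, against 6884238 at 0 hpi. It lowers bins with many reads more at 48 hpi than at 0 hpi, and its part in these values was not tested, so that no direction is read from the bins with the most reads.

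**Figure D2:**
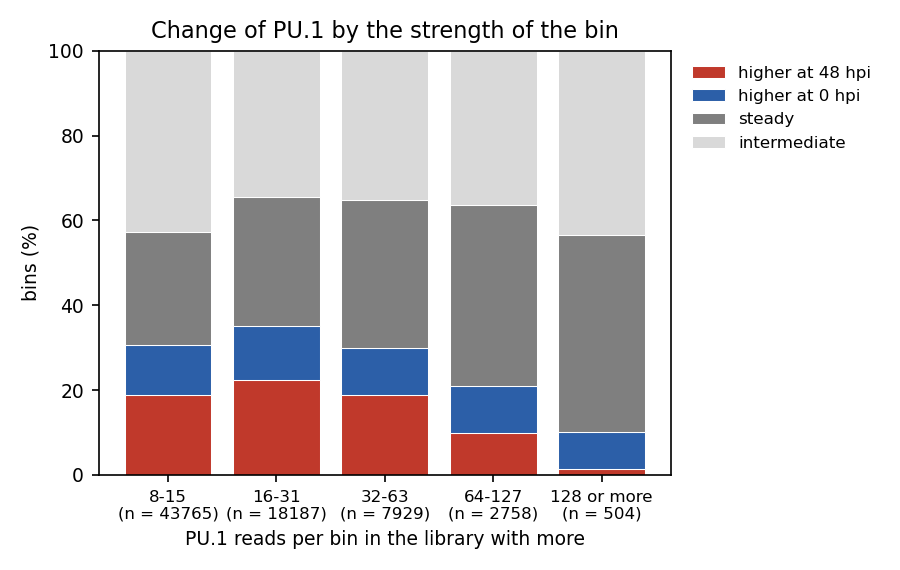
Share of bins in each class (vertical axis, %) by the number of PU.1 reads in the library with more (horizontal axis, with the number of bins). The gained share (red) falls from 22.5% at 16 to 31 reads to 1.39% at 128 or more, while the lost share (blue) stays between 8.73% and 12.6%.

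Reads that had no part in forming the classes followed the same order. The 3320343 reads at 48 hpi that thinning had left out averaged 24.3 per 10000000 in gained bins, 7.97 in lost bins and 29.5 in steady bins, where the reads kept gave 27.4, 5.88 and 30.6. At 0 hpi the means, which like the kept reads had formed the classes, were 4.60, 29.7 and 31.6. The difference between gained and lost bins had the same direction but was smaller in the reads not used to choose them.

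The PU.1 libraries at 3, 12 and 24 hpi, also not used for the classes, placed the change between those of the ends. Gained bins averaged 9.85 reads per 10000000 at 3 hpi, 18.7 at 12 hpi and 17.8 at 24 hpi, before 26.4 at 48 hpi. Lost bins averaged 24.6, 18.7 and 10.8, before 6.56. At 12 hpi the means of gained and lost bins were thus alike. Of the gained bins 83.8% were higher at 12 hpi than at 3 hpi, but 47.3% higher at 24 hpi than at 12 hpi. Of the lost bins 35.3% were higher at 12 hpi than at 3 hpi, and 13.9% higher at 24 hpi than at 12 hpi. In steady bins these shares were 57.2% and 19.5%. The libraries themselves differed: steady bins averaged 34.3, 35.9 and 26.6 at 3, 12 and 24 hpi, and compared bins took 17.5%, 19.003% and 14.4% of the reads. On average the library at 12 hpi was thus high and that at 24 hpi low, though not in the same way at all bins: steady bins with the long PU.1 site described below averaged 87.8, 81.3, 66.8, 51.0 and 77.4 at 0, 3, 12, 24 and 48 hpi. Neither an order of gain and loss nor a pause of gained bins is read from these means.

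**Figure D3:**
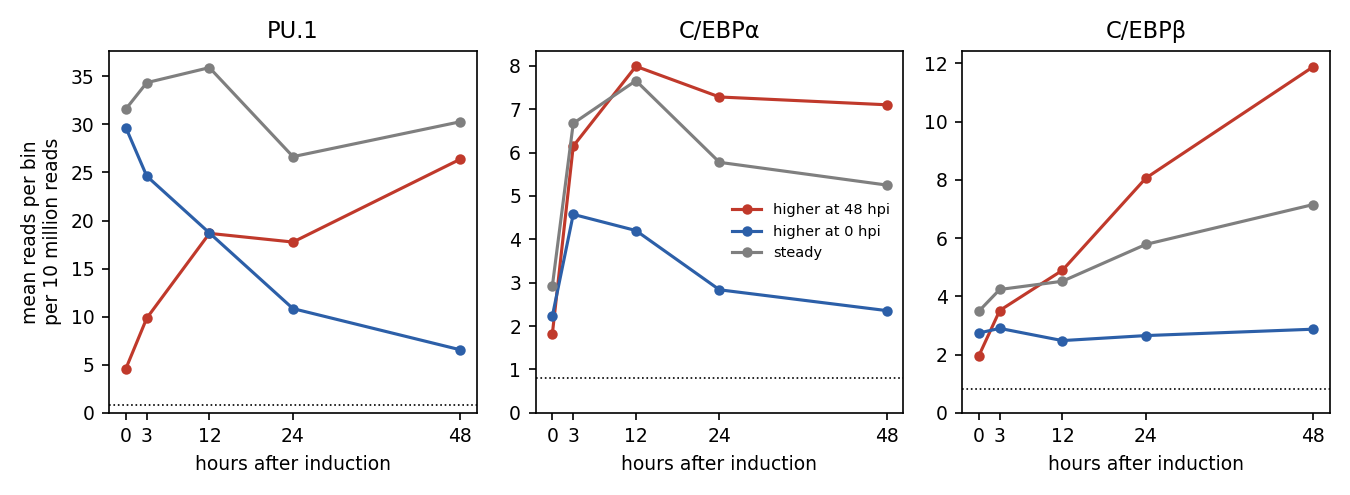
Mean reads per bin per 10000000 reads of the library (vertical axes, different scales) for PU.1, C/EBPα and, on the right, C/EBPβ over hours after induction (horizontal axes) in gained (red), lost (blue) and steady bins (grey). The points are 1 library each, and the dotted line is the mean over all bins of the genome, 0.809. Only the PU.1 points at 0 and 48 hpi were used to form the classes.

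Single bins among the 10 largest gains and losses differed in tempo. The Prss22 bin stood at 3.12 reads per 10000000 at 3 hpi and 66.0 at 12 hpi. The intronic Pgs1 bin, another of the 10 largest gains (4 to 100 reads), already stood at 68.6 at 3 hpi, and it also held 96.6 C/EBPα reads per 10000000 at 48 hpi. The Cntnap5b bin (4 to 98 reads) stood at 12.4 at 12 hpi and 30.6 at 24 hpi, and gained most of its signal last. Among lost bins, that near Igkc still stood at 115 at 3 hpi and had fallen to 34.4 at 12 hpi and 9.91 at 24 hpi. The intronic Fam160a1 bin (87 to 4 reads) had already fallen to 45.2 at 3 hpi, from 126 at 0 hpi. The Prlhr bin (65 to 2 reads) stood at 99.8 at 3 hpi and 63.1 at 12 hpi, after 94.4 at 0 hpi, and fell to 14.4 at 24 hpi. Early and late changes were thus found in both directions.

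The ETS core was common in all classes. GGAAGT was found in 48.3% of gained, 41.4% of lost and 49.1% of steady bins, against 11.3% of all bins of the genome. The 8 letters GAGGAAGT, which contain it, were found in 15.4% (14.8 to 16.01), 14.7% (13.9 to 15.4) and 18.7% (18.2 to 19.3), against 1.20% of all bins. The intervals of gained and lost bins overlapped for the 8 letters but not for GGAAGT. Among bins with 32 reads or more both were more frequent in gained than in lost bins: GGAAGT was in 65.5% and 43.9%, and GAGGAAGT in 28.2% and 15.4%, with 61.7% and 30.1% in steady bins.

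The optimal long form of the site, however, was rarer in gained bins than in lost or steady bins, although above its share of all bins. GAGGAAGT with AAA before it and G after it occurred in 19 gained bins (0.135%), 119 lost bins (1.37%) and 433 steady bins (2.03%), against 0.0117% of all bins. Among 2212 occurrences of GAGGAAGT in gained bins, AAA stood before it in 3.12% (2.43 to 3.93). Among 1299 in lost bins and 4076 in steady bins it did so in 16.6% (14.6 to 18.7) and 19.2% (17.96 to 20.4). The base after the 8 letters differed less: it was G in 55.7%, 67.4% and 62.3%. Over all bins of the genome, 143585 held GAGGAAGT and 1397 the 12 letters. In gained bins these counts were 2174 and 19, in lost bins 1274 and 119, and in steady bins 3997 and 433. The proportion was thus lower in gained bins than in lost and steady bins. The counts over the genome include the compared bins, which held 12259 of the first and 1005 of the second. They are therefore no background free of PU.1, and closeness of gained bins to the genome is not read from them. Of the 1005 compared bins with the 12 letters, 1.89% were gained and 43.1% steady. Steady bins with them were also the strongest, with a mean of 87.8 reads per 10000000 at 0 hpi and 77.4 at 48 hpi, against 28.6 and 27.5 in steady bins without GAGGAAGT. Of the 10 steady bins with the most reads, 5 held the 12 letters and 9 the 8 letters. Of the bins with the 12 letters 11.8% were lost, against 11.9% of those without them. Among bins with 32 reads or more the 12 letters were in 0.566% of gained, 2.28% of lost and 6.08% of steady bins, a smaller contrast between gained and lost bins, and the gained share was low among the bins with the most reads in any case (above).

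**Figure D4:**
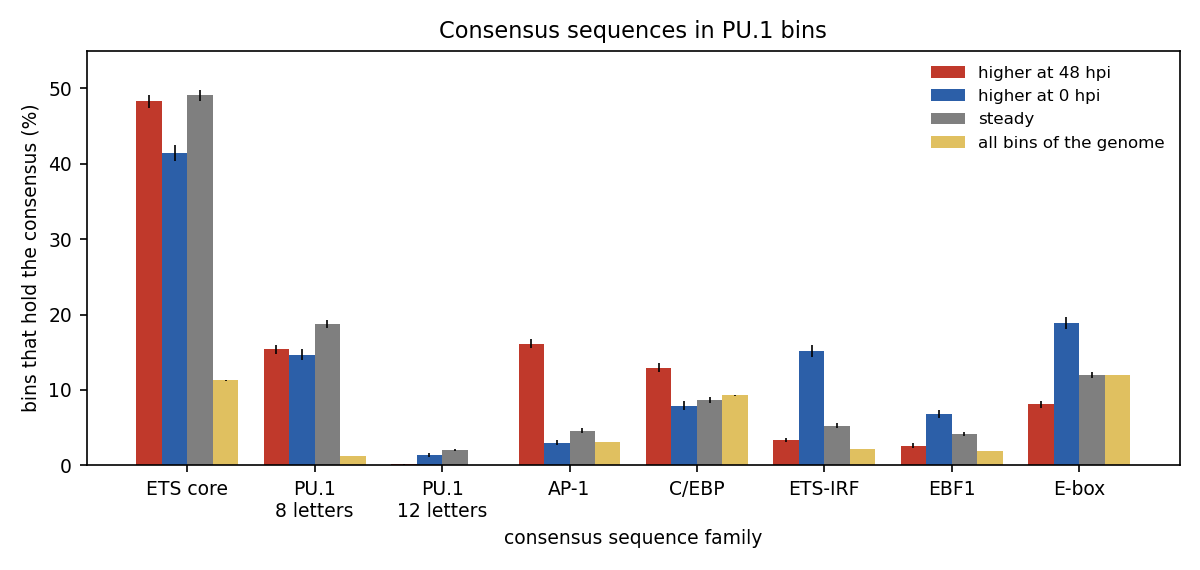
Share of bins that hold each consensus sequence on either strand (vertical axis, %), for gained (red), lost (blue) and steady bins (grey) and for all bins of the genome (yellow), with exact 95% intervals as error bars. AP-1 letters stand out in gained bins (16.1%) and ETS-IRF letters in lost bins (15.1%). The long PU.1 site is at 0.135% in gained bins, against 0.0117% of all bins.

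Gained bins were marked by AP-1 letters. TGACTCA was found in 16.1% of them (15.5 to 16.7), in 3.02% of lost bins and 4.61% of steady bins, and in 3.14% of all bins. The difference held among bins with 32 reads or more (20.8%, 3.18% and 6.03%) and beyond 1 kb of a transcription start site (TSS; 16.4%, 3.08% and 5.08%). Of the 5224 compared bins with TGACTCA, 43.5% were gained and 5.02% lost, against 17.4% and 12.4% of the bins without it. In the 10 bins with the largest gains it was found in 7. Of the 2273 gained bins with the letters, 7 carried them with GNGGTTA directly after, as in a short interspersed repeat. The C/EBP letters TTGCNNAA showed a smaller difference, with 12.9%, 7.89% and 8.71% against 9.28% of all bins. Either of the AP-1 and C/EBP sequences was present in 27.3% of gained, 10.7% of lost and 12.9% of steady bins. The share of all bins with either was not counted.

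Lost bins were marked by ETS-IRF letters and, to a lesser degree, by the letters of EBF1 and by CAGGTG. The ETS-IRF letters, GGAA and GAAA with 2 letters between, were found in 15.1% of lost bins (14.4 to 15.9), 3.36% of gained bins and 5.25% of steady bins, and in 2.17% of all bins. Among bins with 32 reads or more the share in lost bins was 35.7%, against 4.13% and 9.46%. In the 10 bins with the largest losses they were found in 8. Some middle letters were far more frequent than others: of 1364 occurrences in lost bins, GGAAGTGAAA made up 36.3%, GGAACTGAAA 23.5% and GGAAATGAAA 13.3%, whereas in gained bins none of the forms passed 15.1% of 489 occurrences. In steady bins GGAAGTGAAA made up 29.6% of 1162 occurrences and GGAACTGAAA 11.8%. GGAAGTGAAA contains the ETS core GGAAGT, the other forms named do not. The IRF letters alone, GAAA repeated after 2 letters, were in 3.32%, 2.86% and 3.46% of lost, gained and steady bins, against 3.26% of all bins. TCCCNNGGG, the consensus of EBF1, was in 6.84%, 2.62% and 4.13%, against 1.87% of all bins. The E-box CAGGTG, which E2A and other factors bind, was in 18.9%, 8.07% and 12.0%, against 12.0% of all bins. For CAGGTG the contrast thus held a lower share in gained bins as well as a higher one in lost bins. EBF1 and E2A are needed to establish the B lineage. At least 1 of the ETS-IRF, EBF1 and CAGGTG sequences was present in 36.3% of lost bins, 13.5% of gained bins and 20.2% of steady bins. The share of all bins with any of them was not counted.

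The shares of the other sequences searched were closer together in percentage points, though not always as ratios. TGTGGTT, bound by RUNX factors, was in 6.17%, 6.32% and 5.38% of gained, lost and steady bins, against 4.73% of all bins. CAGCTG was in 10.4%, 13.4% and 11.7%, against 7.37%. TGCTGAC, part of the site of MAF factors, was in 4.36%, 3.12% and 3.51%, against 2.73%. CACGTG was in 2.33%, 3.43% and 3.66%, against 1.99%. GGGTGTGG, bound by KLF factors, was in 1.73%, 1.91% and 1.81%, against 1.21%. TGTTTAC (FOX factors) and AACNGTTA (MYB) were in 2.89% and 1.41% of gained bins and 2.91% and 1.22% of lost bins, against 2.98% and 1.37%. ATGCAAAT (POU factors, among them Oct-2) was in 0.907%, 1.37% and 1.27% of gained, lost and steady bins, below the 1.70% of all bins. The NF-κB consensus, GCGTGGGCG (EGR) and TGACGTCA (CREB) occurred in at most 0.469% of the bins of a class. Of these, TGACGTCA was in 0.248%, 0.184% and 0.469% of gained, lost and steady bins, against 0.111% of all bins. A match only says that the letters are there, and these are consensus sequences of families, whose members were not told apart.

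Lost bins with ETS-IRF letters had higher PU.1 means at each time than lost bins without these letters. Lost bins with them averaged 47.0 reads per 10000000 at 0 hpi, 39.8 at 3 hpi, 27.5 at 12 hpi, 14.8 at 24 hpi and 9.17 at 48 hpi. Those without them averaged 26.6, 21.9, 17.1, 10.1 and 6.09. Both groups were chosen for a fall of at least 3-fold from 0 to 48 hpi, so no pace is read from these means. Gained bins with TTGCNNAA and no TGACTCA averaged 12.2 at 3 hpi and 21.3 at 12 hpi, ahead of those with TGACTCA and no TTGCNNAA (8.10 and 17.2), although both ended alike, at 28.3 and 29.6 at 48 hpi. Bins with both sequences stood at 8.66 and 17.8 at 3 and 12 hpi, like those with AP-1 letters alone, and bins with neither at 9.85 and 18.6. At 3 hpi the bins with TTGCNNAA alone held 16.9 C/EBPα reads per 10000000 and those with TGACTCA alone 4.11. Bins with both (251 bins) held 11.5 and bins with neither (10261 bins) 4.77. The PU.1 means already differed at 0 hpi. They were 4.65 with TTGCNNAA alone, 4.42 with TGACTCA alone, 3.81 with both and 4.64 with neither. A relation between C/EBPα and PU.1 at 3 hpi was not tested and is not read from these means.

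At 48 hpi C/EBPα was more frequent at gained than at lost bins. At least 8 C/EBPα reads at 48 hpi were found in 2308 gained bins (16.4%, 15.8 to 17.0), 179 lost bins (2.06%, 1.77 to 2.38) and 2281 steady bins (10.7%). The share depended on how C/EBPα was counted: in gained bins it was 34.8% with 4 reads, 7.92% with 16 reads and 40.4% with 8 reads in 600 bp, and in lost bins 13.8%, 0.472% and 17.8%. From the other side, the gained share rose with C/EBPα: from 17.4% of bins with 0 to 3 C/EBPα reads through 19.6% (4 to 7) and 29.1% (8 to 15) to 38.9% of bins with 16 or more. The lost share fell along the same steps from 14.1% through 7.65% and 3.38% to 1.43%. The 2308 gained bins with C/EBPα had more PU.1 at each time, with means of 5.34, 15.6, 28.6 and 36.0 reads per 10000000 at 0, 3, 12 and 48 hpi. The 11802 without it stood at 4.45, 8.73, 16.7 and 24.5. TTGCNNAA was in 31.4% of the former and 9.34% of the latter, close to the 9.28% of all bins. Lost and steady bins with C/EBPα at 48 hpi also had more PU.1 at each time than those without. At 0 hpi the means were 51.1 against 29.2 in lost bins and 49.7 against 29.4 in steady bins.

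The order of gained and lost bins in C/EBPα was the reverse of this at 0 hpi and in the first hour. The mean C/EBPα level in lost bins was 2.23 reads per 10000000 at 0 hpi, 2.56 at 10 min, 4.75 at 30 min and 4.45 at 60 min, and in gained bins 1.82, 1.78, 3.66 and 4.17. The mean over all bins of the genome was 0.809. At 0 hpi C/EBPβ was also higher in lost (2.74) than in gained bins (1.96). Lost bins had been chosen for PU.1 at 0 hpi and there was no control library, so binding is not read from the low means at 0 hpi and 10 min. Gained bins then stood at 6.15 at 3 hpi, 7.99 at 12 hpi and 7.10 at 48 hpi, and lost bins at 4.58, 4.203 and 2.36. Steady bins stood above both classes at 0 hpi (2.92) and at 10, 30 and 60 min (3.21, 6.18 and 5.74). At 3, 12 and 48 hpi steady bins were at 6.67, 7.66 and 5.25. At least 8 C/EBPα reads were found in 19.1% of lost and 9.39% of gained bins at 10 min, 15.2% and 10.0% at 30 min, 21.4% and 16.1% at 60 min, and 14.9% and 16.2% at 3 hpi. At these times steady bins stood at 22.2%, 17.1%, 24.1% and 19.9%, and all compared bins at 17.4%, 14.1%, 20.5% and 17.0%. These shares compare classes within a library only, since the libraries differed in depth. C/EBPβ, a close relative of C/EBPα, rose in gained bins from 1.96 at 0 hpi to 4.89 at 12 hpi, 8.06 at 24 hpi and 11.9 at 48 hpi, and in lost bins stayed between 2.48 and 2.90. In steady bins it rose as well, from 3.49 at 0 hpi to 7.15 at 48 hpi.

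Compared bins lay mostly outside promoters, and changing bins more so than steady ones. Within 1 kb of a TSS were 6.93% of gained, 6.51% of lost and 18.2% of steady bins, against 12.6% of all compared bins. Seen from the promoter, 41.9% of the 9251 bins within 1 kb of a TSS were steady and 10.6% gained, against 27.3% and 20.6% of the bins beyond. The median distance to the nearest TSS was 17636 bp for gained, 27486.5 bp for lost and 13736 bp for steady bins. More than 100 kb from any TSS lay 19.98% of lost, 11.2% of gained and 11.1% of steady bins, against 12.8% of all compared bins.

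Genes were assigned the bins within 100 kb whose nearest TSS was their own. Of 21275 protein-coding genes 12550 had a compared bin, 5247 had a gained bin and 3981 a lost one. Both kinds were found at 1573 genes, which are 30.0% of the first and 39.5% of the second. These are near the shares over all genes with a compared bin, of which 31.7% had a lost bin and 41.8% a gained one. Over all genes 19.7% of bins were gained and 10.9% lost, and the median log2 ratio of a gene's summed reads (48 hpi over 0 hpi) was 0.09. Of the 12550 genes 6641 had more reads at 48 hpi and 5738 more at 0 hpi. The gene lists below are read beside these values.

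Among the lists, the gained share was highest at macrophage genes. For 25 genes of macrophage surface and signalling proteins, 107 of 258 bins (41.5%) were gained and 6 (2.33%) lost, 24 genes had more reads at 48 hpi, and the median log2 ratio was 0.84. Cx3cr1, the fractalkine receptor, had 11 reads at 0 hpi and 128 at 48 hpi over 4 bins, all of them gained. Trem2, a lipid-sensing receptor, had 5 and 57 over 2 bins, both gained. Fcer1g, the common gamma chain of Fc receptors, had 20 and 128. At Cd36, a scavenger receptor, 19 of 25 bins were gained, although its strongest bin, 3787 bp upstream, was steady with 181 and 131 reads. Tlr4, the receptor for lipopolysaccharide, behaved likewise, with 17 of 30 bins gained around a steady bin at the start of the gene (166 and 111 reads). Csf1r, the receptor for CSF-1, went from 162 to 290 reads, with 6 of 17 bins gained and a steady one at the TSS (33 and 40). Mrc1, the mannose receptor, was the exception in this list, with 495 reads at 0 hpi and 342 at 48 hpi. At several of these genes, PU.1 was thus strong in pre-B cells already, and the gain consisted of further bins around it.

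Among 24 genes of macrophage effectors 101 of 265 bins (38.1%) were gained and 10 lost, with a median log2 ratio of 0.59. Of these genes 19 had more reads at 48 hpi and 5 more at 0 hpi, and 7 had a lost bin. Ctsd, which encodes the lysosomal protease cathepsin D, went from 88 to 591 reads, with 14 of 20 bins gained. Its strongest bin (chr7:149584001-149584200, 10158 bp upstream) held 6 reads at 0 hpi and 103 at 48 hpi, a ratio of 17.2 (7.62 to 47.9), and stood at 15.6 per 10000000 at 3 hpi and 97.5 at 12 hpi. Apoe, a lipid carrier, went from 6 to 59 reads, Il1rn, the antagonist of the IL-1 receptor, from 83 to 307, and Il1b from 191 to 520. Some subunits of the NADPH oxidase were already bound: Cyba had 178 and 153 reads with no gained bin, and Ncf1 218 and 233 with none. Of 9 genes of neutrophil granules, 7 had more reads at 48 hpi and 11 of 32 bins (34.4%) were gained, among them the 3 bins of S100a8 (4 to 46 reads) and the single bin of Elane (0 to 14 reads). The median log2 ratio of this list was 0.99, above those of both macrophage lists.

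Myeloid transcription factors had a lower gained share than the macrophage lists. Of the 253 bins of these factors 60 (23.7%) were gained and 19 lost. More reads at 48 hpi were found at 17 of 21 genes, and the median log2 ratio was 0.48. Cebpb, which encodes C/EBPβ, went from 353 to 659 reads, with a bin 71286 bp downstream of its TSS at 22 and 92. Klf4 went from 52 to 135 and Nr4a1 from 40 to 123. At Sfpi1, the gene of PU.1 itself, reads went from 174 to 225 over 12 bins, with the strongest bin steady (76 and 71). Irf8, which is used in both lineages, went from 477 to 400, with 6 lost bins and 1 gained.

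B-lineage transcription factors showed the reverse. Of 214 bins 42 (19.6%) were lost and 17 (7.94%) gained, 13 of 16 genes had fewer reads at 48 hpi, and the median log2 ratio was -0.46. A median of this size was not particular to the list: the 6 erythroid and megakaryocytic genes had -0.50. Spib, an ETS factor closely related to PU.1, went from 180 to 28 reads, with each of its 3 bins lost. Pou2f2, which encodes Oct-2, went from 230 to 68. Pax5, which maintains B cell identity, went from 347 to 162. Its strongest bin (chr4:44684001-44684200, in an intron) held ETS-IRF letters and went from 175 to 58 reads. Foxo1, which controls the recombinase genes in pre-B cells, went from 464 to 299, most of the difference being in the bin shown above. Among the 6 lost bins of Bach2, the one with the most reads went from 51 to 3. Ebf1 went against the list, from 103 to 131 reads, with 2 gained bins and no lost one, and Ikzf1, used in many blood lineages, had its strongest bin at 81 reads in both libraries.

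Genes of the pre-B cell surface and its signalling had a lost share near that over all genes and a lower gained share. Of their 216 bins 24 (11.1%) were lost and 28 (13.0%) gained, and 16 of 22 genes had fewer reads at 48 hpi, with a median log2 ratio of -0.40. Of the 28 gained bins 15 belonged to Cd93, a receptor of early B cells that macrophages also make, which went from 447 to 773. Blnk, the adaptor of the pre-B cell receptor, went from 586 to 339 reads, and its strongest bin, 1276 bp upstream, from 174 to 25. Cd79a, a signalling chain of the same receptor, went from 151 to 62. Il7r, the receptor for IL-7, kept its strongest bin at 85 reads in both.

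**Figure D5:**
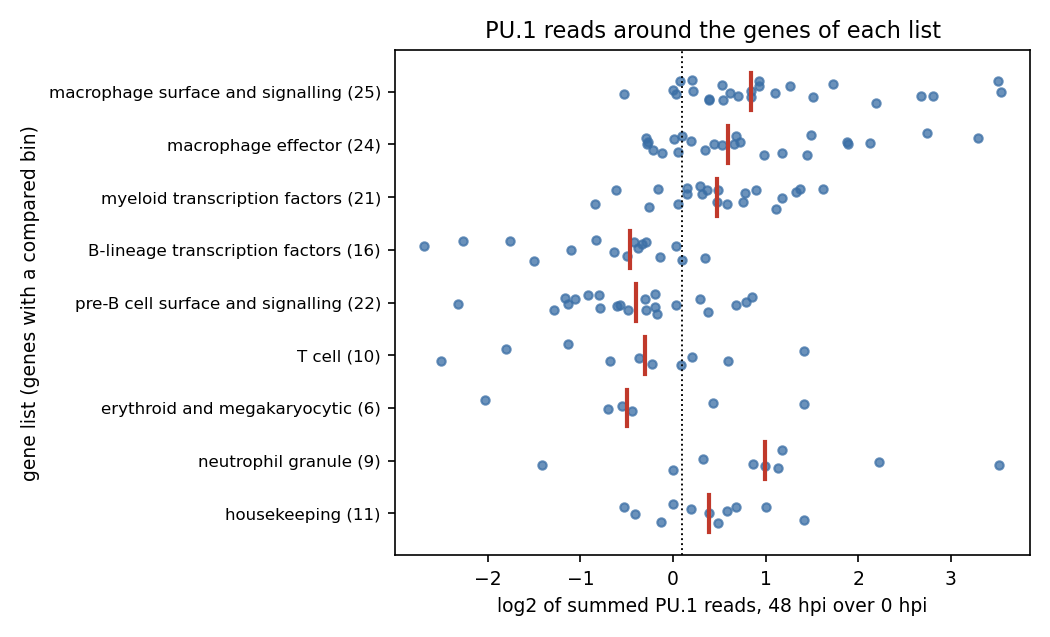
Log2 ratio of a gene's summed PU.1 reads, 48 hpi over 0 hpi (horizontal axis), for the genes of each list with a compared bin (points, spread vertically for visibility, with their number in brackets). Red bars are the medians of the lists, among them 0.84 for macrophage surface and signalling and -0.46 for B-lineage transcription factors. The highest median is that of neutrophil granules (0.99) and the lowest that of erythroid and megakaryocytic genes (-0.50). The dotted line is the median over all genes, 0.09.

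Lists of other cell types had few bins. Genes of T cells had 35 bins, 1 gained and 3 lost, and erythroid and megakaryocytic genes 25, also 1 gained and 3 lost. The median log2 ratios were -0.30 over 10 T cell genes and -0.50 over 6 erythroid and megakaryocytic genes. At housekeeping genes 7 of 74 bins (9.46%) were gained and 4 (5.41%) lost, and 32 (43.2%) were steady. The median over 11 housekeeping genes was 0.39. Medians of these lists thus moved about as much as some of those above.

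Over all genes, and chosen for these counts after they were seen, the most gained bins lay near Sgms1, which encodes a sphingomyelin synthase (29 of 68 bins), Dock10 (24 of 54) and Pid1 (21 of 27). They were followed by B230120H23Rik and Klf6, a Krüppel-like factor, with 20 each of 31 and 36 bins. The summed reads of Pid1 went from 103 to 574 and those of Klf6 from 239 to 713. The most lost bins lay near Cplx2 (14 of 35) and Chst3 (13 of 27), neither of which had a gained bin, and Mtss1 (11 of 37). At Cxcr4, a chemokine receptor that keeps B cell precursors in the marrow, 9 of 22 bins were lost and reads went from 582 to 241. Gain and loss met at Foxp1, a transcription factor with roles in both lineages, where 12 of 76 bins were gained and 10 lost and the sums hardly moved, from 1115 to 1098.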

How the data were processed

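PU.1 ChIP-seq reads of C10 cells at 0 and 48 hpi were compared, with the libraries at 3, 12 and 24 hpi and those of C/EBPα (8) and C/EBPβ (5) as further measurements. The authors aligned reads to mm9 with ELAND or Bowtie, kept unique alignments and deposited the position and strand of each read, so that reads per bin are raw counts with no normalization or score. For PU.1 at 0 hpi the authors' settings name merged reads without their source. Bowtie and HOMER are named in the submitters' processing notes, and their versions are not given in the sources used here. One read per position and strand was kept, 5′ ends were moved 75 bp inward, and reads were counted in 200-bp bins. The library at 48 hpi was thinned with a fixed seed. Values of other libraries are per 10000000 reads. TSSs and exons came from GENCODE vM1, and 20 consensus sequences were searched on both strands of the mm9 sequence; bins without unknown bases (11968110) gave the background. Intervals are exact (Poisson for counts, conditional binomial for ratios, Clopper-Pearson for shares). The class calls were run on simulated reads, with planted changes larger than 3-fold in bins drawn from those with at least 16 reads at 0 hpi. Changes near 3-fold, and bins as weak as the 43765 compared bins with 8 to 15 reads in the library with more, were not covered. Named genes were those of 9 lists, plus the nearest genes of the 10 bins with the largest fold change in each direction and of the 10 steady bins with the most reads, 1 bin per gene. The genes with the most gained or lost bins were named after their counts were seen. Members, lists and consensus sequences were chosen with earlier results of these data known. Python 3.11.15, numpy 2.4.6 and scipy 1.17.1 were used. Alternatives concerned thinning, scaling, read position, bin grid, minimum reads, strands and fold.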

Additional observations from a re-analysis of the deposited data

How the results depend on the processing

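No paired analysis was possible because each time point had 1 library, and leaving one out was not possible for the same reason. Counts of compared, gained and lost bins stayed within 1.5-fold of those given under another random draw, scaling by reads outside the bins, read positions from the strand distance, a grid 100 bp later, 2 reads on each strand and (added after seeing the data) bins beyond 1 kb of a TSS. With scaling in place of thinning, which was run for gained and lost bins alone, 11573 were gained and 7597 lost. With at least 16 reads, 29378 bins were compared, 5853 gained and 3520 lost. At 2-fold 23992 were gained and 17332 lost, and at 4-fold 7056 and 3729.

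The share of gained bins with C/EBPα was 34.8% with 4 C/EBPα reads, 7.92% with 16, 40.4% with 8 in 600 bp, 23.0% in bins of at least 16 PU.1 reads, 13.4% at 2-fold and 20.9% at 4-fold. For lost bins these were 13.8%, 0.472%, 17.8%, 3.24%, 2.97% and 1.88%, each below the share of gained bins. GAGGAAGT was in 20.9% of gained and 15.6% of lost bins with at least 16 reads, and in 16.5% and 15.7% of those with 2 reads on each strand. GGAAGT in its place gave 48.3% and 41.4%. Scaled to reads outside the compared bins (added after seeing the data), PU.1 means at 3, 12 and 24 hpi were 10.0, 19.3 and 17.4 in gained, 25.0, 19.4 and 10.6 in lost, and 34.9, 37.1 and 26.1 in steady bins. Depth limits single weak bins: a count of 8 reads has an exact interval of 3.45 to 15.8.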

Other observations

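The gained share of a chromosome's compared bins ranged from 17.2% (chromosome 11) to 22.1% (chromosome 13), and the lost share from 10.1% (chromosome 2) to 13.4% (chromosome 14). Outside the compared bins the ratio of reads at 48 hpi to reads at 0 hpi ranged from 0.952 (chromosome 11) to 1.04 (chromosome 3). The mean GC content was 46.3% in gained, 47.2% in lost and 48.5% in steady bins, and 41.9% over all bins. Where a run of neighbouring bins was represented by the bin with the most reads alone, TGACTCA was in 18.8% of gained, 3.05% of lost and 4.94% of steady bins, the ETS-IRF letters in 3.53%, 20.3% and 6.80%, and the 12 letters of the long PU.1 site in 0.202%, 1.92% and 3.16%.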
